A study of Mus musculus with 2 samples.

Results

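A set of 10 genes that mark tissue-resident macrophages were examined in newborn mouse ureters whose WNT ligand secretion had been blocked. They are *Csf1r*, *Cd68*, *Cd14*, *Mrc1*, *Cx3cr1*, *Fcgr1*, *Aif1*, *C1qa*, *C1qb* and *Lyz2*, taken by gene name from the array annotation with every one of their probes. All 10 genes were present, with 15 of the 39429 probes and as 10 of the 29924 gene names on the array. Wildtype NMRI ureters were dissected at P0 and cultured for 18 h, either with 5 µM IWP-2 or with its solvent DMSO (1:1000). IWP-2 inhibits PORCN, the enzyme that attaches the lipid which WNT ligands need for their secretion. Each of the 2 two-colour arrays compared 1 control pool with 1 treated pool of ureters of the same sex, female in replicate 1 and male in replicate 2, with the dyes swapped between the arrays. Sex, dye orientation and array therefore changed together and cannot be told apart, and the small number of arrays, 2, limits how precisely any difference is known.

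Macrophages settle in most organs before birth. They depend on the receptor CSF1R and its ligands CSF1 and IL34 for survival, take up dead cells and debris into lysosomes, recognize microbial surfaces and antibody-coated particles through membrane receptors, and are a main source of the complement component C1q. None of the 10 genes is confined to macrophages in every tissue. *Mrc1*, for example, is also made by some endothelial cells, and *Cd14* by some epithelial and stromal cells.

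Values are background-corrected array signals without a unit, floored at 15, and differences are given as log2 of IWP-2 over control (0 means no difference). Of the 29924 genes, 14336 were bright enough (signal above 100 on average in the control or the treated pools) and were tested with limma, a linear model that pools the spread over genes, with Benjamini-Hochberg adjustment. The block of WNT signaling was visible in both arrays. *Axin2*, a feedback target of the pathway, had signals of 181 in the female and 154 in the male control pool and of 42.2 and 46.7 in the treated pools (mean log2 difference −1.91, limma adjusted p = 0.000824). The other 4 genes of this check, *Lgr5*, *Nkd1*, *Notum* and *Wif1*, were also called lower. Markers of the urothelium and of smooth muscle, layers of the labelled tissue, were detected. All 8 urothelium genes (such as *Upk2* and *Krt5*) of the marker lists had signals above 100 in every pool. So did all 8 smooth muscle genes (such as *Acta2* and *Myh11*).

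In these ureters, 9 of the 10 macrophage genes were detected and *Fcgr1* was not. None of the 9 passed the limma test, in either direction. Their mean log2 differences lay between −0.15 for *Mrc1* and 0.31 for *Lyz2*, with a median of 0.15, against −0.01 over all genes tested, and adjusted p-values lay between 0.112 and 0.814. At an unadjusted p under 0.05 limma gave 2 genes, *Lyz2* and *Cx3cr1*, both with a higher signal in the treated pools, against 6.27% of all genes tested that were higher at this threshold. Among all genes tested, 0.363% were called higher and 0.886% lower after adjustment. None of the 10 genes reached 1.5-fold in both arrays, the fold at which the study filtered genes with control signals above 100, a filter that 0.441% of the genes with such control signals passed here in both arrays. Median centring in place of loess split the calls into 85 higher and 108 lower genes, against 52 and 127. In bulk RNA, fewer cells of a type and less RNA per cell cannot be told apart, and the same holds for more cells and more RNA per cell.

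The 95% limma intervals of the 9 genes, not adjusted for the number of genes, ran from 0.779-fold as the lowest bound, for *Mrc1*, to 1.40-fold as the highest, for *Cx3cr1*. Differences of 1.5-fold or more in the mean of both arrays lay outside every one of these intervals. Intervals of *Lyz2* and *Cx3cr1* lay above 0, and those of the other 7 genes included it.

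**Figure D1:**
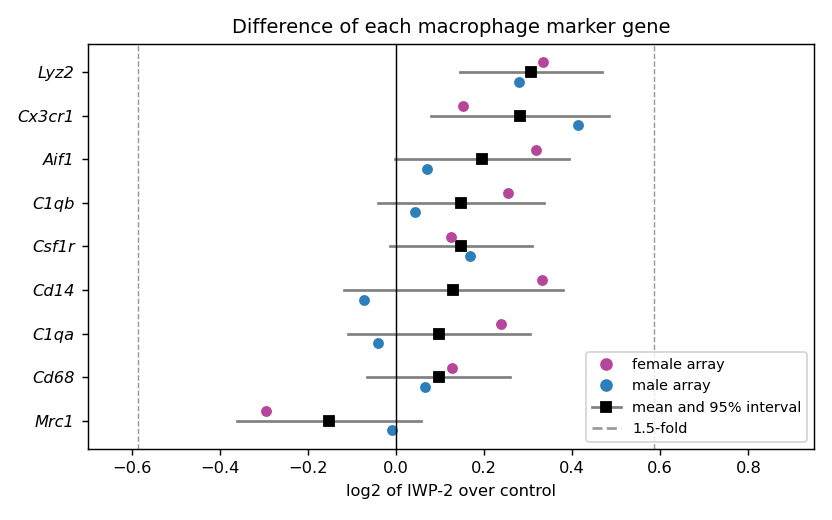
Log2 of IWP-2 over control (x axis) for the 9 macrophage marker genes detected (y axis), with the female array in purple, the male array in blue, and the mean of both arrays with its 95% limma interval in black and grey; dashed lines mark 1.5-fold. All 9 intervals lie inside the dashed lines, *Mrc1* alone has a mean below 0, and the arrays lie on opposite sides of 0 for *Cd14* and *C1qa*.

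The myeloid transcription factor PU.1 binds purine-rich sites, often with the letters GAGGAA, at many macrophage genes. RefSeq promoters (GRCm38.p6, 250 bases before to 50 after the start) were at hand for 7 of the 10 genes, all but *C1qa*, *Cd14* and *Csf1r*. GAGGAA, on either strand, stood in 5 of the 7, those of *Aif1*, *C1qb*, *Cd68*, *Fcgr1* and *Mrc1*, and in 28.3% of all 32851 promoters. The letters CTTTGAA or CTTTGAT, which occur in sites of the WNT-regulated TCF/LEF factors, stood on either strand in 1 of the 7, that of *Mrc1*, and in 8.65% of all promoters. A match is a description of the letters and not a binding site. The 120 bases before the start are given for the gene with a mean below 0, a C1q gene, and the 2 genes with the highest means, with GAGGAA or its reverse complement in capitals. *Lyz2* and *Cx3cr1*, the 2 genes with the highest means, hold no such match in the whole promoter entry, and the CTTTGAA of *Mrc1* lies upstream of the stretch shown.
*Mrc1* (chr2:14229294-14229413, + strand): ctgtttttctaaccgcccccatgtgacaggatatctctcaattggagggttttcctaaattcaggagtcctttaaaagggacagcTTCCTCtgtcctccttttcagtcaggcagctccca
*C1qb* (chr4:136886201-136886320, − strand): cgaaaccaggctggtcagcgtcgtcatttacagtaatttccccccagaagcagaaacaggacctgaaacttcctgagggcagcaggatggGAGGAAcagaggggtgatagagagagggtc
*Lyz2* (chr10:117282273-117282392, − strand): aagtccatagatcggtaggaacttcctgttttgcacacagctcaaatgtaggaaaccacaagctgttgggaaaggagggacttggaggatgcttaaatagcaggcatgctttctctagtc
*Cx3cr1* (chr9:120068297-120068416, − strand): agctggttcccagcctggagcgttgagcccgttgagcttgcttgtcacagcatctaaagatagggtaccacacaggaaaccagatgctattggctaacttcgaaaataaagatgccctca

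*Csf1r*, the receptor for CSF1 and IL34, had signals of 1197 (female) and 1008 (male) in the control pools and of 1306 and 1132 in the treated pools. Each treated pool was above the control pool of its own array, but the female control exceeded the male treated pool, so the groups overlapped. The log2 difference was 0.13 in the female and 0.17 in the male array (mean 0.15, standard error 0.067, limma adjusted p = 0.453). The other 2 probes of *Csf1r*, both dimmer, gave means of 0.14 and 0.12, also above 0 in both arrays.

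*Cx3cr1* encodes the receptor for the chemokine CX3CL1 and is typical of monocytes and several resident macrophage types. Its signals were 313 (female) and 204 (male) in the controls and 347 and 271 in the treated pools. Each treated pool lay above the control pool of its own array, but the female control exceeded the male treated pool, so the groups overlapped. The log2 difference was 0.15 in the female and 0.41 in the male array (mean 0.28, standard error 0.084, limma adjusted p = 0.204). The other 2 probes gave means of 0.31 and 0.26 with the larger difference again in the male array, although one of them overlaps the probe shown along most of its length and is no separate measurement.

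Among the receptors that recognize particles and microbes, *Cd14*, the coreceptor for lipopolysaccharide, moved apart in the 2 arrays. Its signal was 2325 in the female control and 2926 in the female treated pool, and 3369 in the male control and 3204 in the male treated pool. The log2 difference was therefore 0.33 in the female and −0.07 in the male array, a spread larger than the mean of 0.13 (standard error 0.10, limma adjusted p = 0.79). All pools of the male array lay above those of the female array.

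*Mrc1*, the mannose receptor CD206 of tissue macrophages, was the 1 gene with a mean below 0. Signals were 1745 (female) and 1606 (male) in the controls and 1423 and 1595 in the treated pools, so both treated pools lay below both control pools, in the male array by a margin of hardly any size. Of all genes tested, 17% had both treated signals below both control signals. The log2 difference was −0.29 in the female and −0.01 in the male array (mean −0.15, standard error 0.087, limma adjusted p = 0.613). The probe of *Mrc1* lies at chr2:14253273-14253332 (mm9). *Fcgr1*, the high-affinity IgG receptor CD64, had signals of 6.46 and 7.58 in the controls and of 5.82 and 9.33 in the treated pools before flooring. All 4 values lay under the floor of 15, and no fold is given for this gene, which rests on a single probe.

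The complement genes *C1qa* and *C1qb* encode A and B chains of C1q, the protein that starts the classical complement pathway. *C1qa* had signals of 822 (female) and 1029 (male) in the controls and of 970 and 1000 in the treated pools. It was thus higher with IWP-2 in the female array only, with log2 differences of 0.24 and −0.04 (mean 0.10, standard error 0.086, limma adjusted p = 0.814). *C1qb* had signals of 909 and 1088 in the controls and of 1084 and 1121 in the treated pools. Its differences of 0.25 in the female and 0.04 in the male array had the same order (mean 0.15, standard error 0.078, limma adjusted p = 0.56). For both genes the male control pool lay above the female one, and the groups overlapped. *C1qc*, the gene of the third chain, which is no member of the list, gave 0.13 and 0.02 (limma adjusted p = 0.839).

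*Lyz2*, the lysozyme of macrophages and other myeloid cells, showed the largest mean difference of the list. Its signals were 1677 (female) and 1666 (male) in the controls and 2113 and 2023 in the treated pools. The probe lies at chr10:116719175-116719234 (mm9, as the array files give it). Both treated pools lay above both control pools, which held for 14% of all genes tested and for no other macrophage marker gene here, and the 2 controls were nearly alike. The log2 difference was 0.33 in the female and 0.28 in the male array (mean 0.31, standard error 0.067), equal to 1.24-fold with an interval from 1.11 to 1.38. After adjustment over all genes it did not pass (limma adjusted p = 0.112), and it passed only when the spread was modelled as a function of signal intensity (adjusted p = 0.0347) or when the deposited fold changes with 1 decimal were fitted (adjusted p = 0.0162). *Lyz1*, its neighbour gene and near copy, gave 0.16 and 0.43 with its own probe (mean 0.30, limma adjusted p = 0.192). The 60-base probes of the 2 genes shared at most 21 identical bases in any ungapped alignment, over 55 aligned bases. Whether each probe also binds RNA of the other gene was not tested.

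*Cd68*, a glycoprotein of lysosomes and endosomes, had signals of 1284 and 1428 in the controls and of 1402 and 1496 in the treated pools. The log2 difference was 0.13 in the female and 0.07 in the male array (mean 0.10, standard error 0.067, limma adjusted p = 0.735), and a second, dimmer probe gave 0.13 and 0.08. *Aif1*, whose product IBA1 binds calcium and actin, had signals of 435 and 581 in the controls and of 542 and 610 in the treated pools. Its log2 differences of 0.32 and 0.07 (mean 0.19, standard error 0.082, limma adjusted p = 0.399) made it another gene with a clearly larger difference in the female array. In both genes the male control exceeded the female treated pool, so the groups overlapped.

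**Figure D2:**
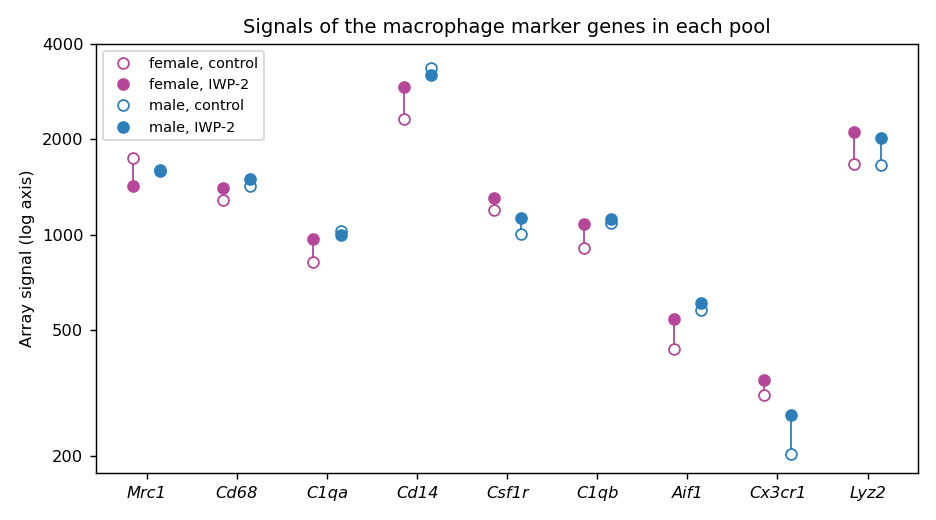
Array signal on a log axis (y) of the 9 detected macrophage marker genes (x), with open circles for control and filled circles for IWP-2-treated pools, female in purple and male in blue; each line joins the 2 pools of an array. Levels are not comparable between genes, and pools of different arrays also differ in array and sex. *Lyz2* is the gene in which both treated circles lie above both control circles, and the 2 male circles of *Mrc1* lie on top of each other (1606 and 1595).

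Of the 9 genes, 6 (66.7%) had a higher signal with IWP-2 in both arrays, against 25.7% of all genes tested. This is a description, since the 9 genes were read from the same pools and are not replicates of the treatment. Whether they vary together within a pool was not tested. The median log2 difference was 0.24 in the female and 0.07 in the male array, and in 7 of the 9 genes the difference was larger in size in the female array. Over all genes tested the medians were −0.00 in both arrays, and the standard deviation across genes was 0.22 in the female and 0.17 in the male array. The arrays differed most in *Cd14*, by 0.40, followed by *Mrc1* (−0.28), *C1qa* (0.28) and *Cx3cr1* (−0.26, female minus male), against a median absolute difference of 0.10 over all genes tested. The 3 to 4 spots of a probe of the detected genes had standard deviations between 0.0038 and 0.0761 on the log2 scale, which hold none of the variation between pools. With 1 array per sex the differences between the arrays could not be tested.

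The untreated pools of the 2 arrays also differed. The male control lay above the female control in 5 of the 9 genes, most in *Cd14* (log2 difference 0.54) and *Aif1* (0.42), and below it in 4, most in *Cx3cr1* (−0.62). Over all genes tested this difference had a median of −0.00 and a standard deviation of 0.31. The direction thus varied from one macrophage gene to the next.

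Other macrophage and phagocyte genes were read from a list of 36, of which 31 were tested. None of them was called by limma, and 3 were higher and 2 lower at an unadjusted p under 0.05. In both arrays, 14 were above 0, against 25.7% of all genes tested, and 6 of the list were below 0. The median log2 difference was 0.08, with 0.14 in the female and 0.00 in the male array. Among the brightest of the list were *Pf4*, a chemokine of platelets that many resident macrophages make (0.23 in the female and 0.11 in the male array, limma adjusted p = 0.373), and *Lgmn*, a lysosomal protease (−0.12 and −0.09, limma adjusted p = 0.685). The genes named next were chosen after their values were seen. *Adgre1*, which encodes the macrophage surface protein F4/80, gave 0.30 and 0.22 (limma adjusted p = 0.154), and *Spi1*, the transcription factor PU.1 of the myeloid lineage, 0.17 and 0.17 (limma adjusted p = 0.353). *Lyve1*, a hyaluronan receptor of lymphatic endothelium and of some resident macrophages, had signals of 476 and 350 in the controls and of 243 and 258 in the treated pools. Its log2 differences of −0.97 and −0.44 gave the lowest mean of the list and did not pass (limma adjusted p = 0.0629). *Stab1*, a scavenger receptor of macrophages and endothelium, gave −0.19 and −0.06 (limma adjusted p = 0.627). In the same list, *Msr1* gave −0.03 and 0.26 (limma adjusted p = 0.763) and *Folr2* 0.16 and −0.18 (limma adjusted p = 0.996). The probe of *Ptprc*, the gene of the pan-leukocyte protein CD45, was dim, with signals between 30.3 and 41.1, and was not tested. *Timd4*, a marker of some embryo-derived macrophages, lay at the floor in all pools.

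Among signals that maintain or attract macrophages, 9 of 11 genes were tested and limma called 0, with 1 higher and 3 lower (*Csf1*, *Gas6* and *Pros1*) at an unadjusted p under 0.05, against 6.64% of all genes tested that were lower at this threshold. *Csf1* had signals of 1854 and 2332 in the controls and of 1627 and 1995 in the treated pools (log2 differences −0.19 and −0.23, limma adjusted p = 0.239). *Il34*, the gene of the other CSF1R ligand, lay at the floor in all pools, and *Cx3cl1*, the ligand gene for CX3CR1, gave −0.05 and 0.02 (limma adjusted p = 0.994). The brightest genes of this list were the chemokine genes *Ccl2* (0.32 and −0.03, limma adjusted p = 0.706), *Cxcl12* (0.29 and 0.45, limma adjusted p = 0.0871) and *Ccl7* (0.30 and 0.03, limma adjusted p = 0.554). *Gas6*, a bridging protein for the uptake of dead cells, gave −0.42 and −0.35 and did not pass (limma adjusted p = 0.0627).

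Of 11 genes of CD14 partners in lipopolysaccharide recognition and related receptors, 9 were tested. Limma called 0, with 0 at an unadjusted p under 0.05 and a median of 0.09. In both arrays, 5 were above 0, against 25.7% of all genes tested, and 0 of the list were below 0. *Lbp*, *Myd88* and *Ly96*, the brightest of them, had means of −0.00, 0.03 and 0.09. The 6 other Fc receptor genes and partners were all tested, with 0 called, 0 at an unadjusted p under 0.05 and a median of 0.06. The brightest, *Fcgrt*, *Fcer1g* and *Fcgr3*, had means of 0.07, 0.10 and 0.06. Of 13 complement genes 11 were tested and 0 called, with 1 higher and 1 lower at an unadjusted p under 0.05. The higher one was *C3*, at 0.80 in the female and 0.15 in the male array (limma adjusted p = 0.208). The brightest, *Serping1*, *Cd93* and *C1ra*, had means of −0.05, 0.02 and 0.06. Of 14 lysosome genes 13 were tested and 0 called, with 1 higher and 1 lower at an unadjusted p under 0.05 and a median of 0.03. The protease genes *Ctsl* and *Ctsb* and the membrane protein gene *Lamp1*, the brightest of them, had means of 0.09, 0.03 and 0.03. Of 10 genes of alternative macrophage activation 6 were tested, and limma called 1 of them lower, the chemokine gene *Ccl24*. Its signals were 148 and 145 in the controls and 102 and 109 in the treated pools (log2 differences −0.53 and −0.41, limma adjusted p = 0.0395). At an unadjusted p under 0.05, 2 were lower and 0 higher, the second being *Arg1* (−0.36 and −0.16, limma adjusted p = 0.205). The brightest of this list, *Mgl2*, *Il4ra* and *Ccl8*, had means of −0.04, −0.04 and 0.05.

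**Figure D3:**
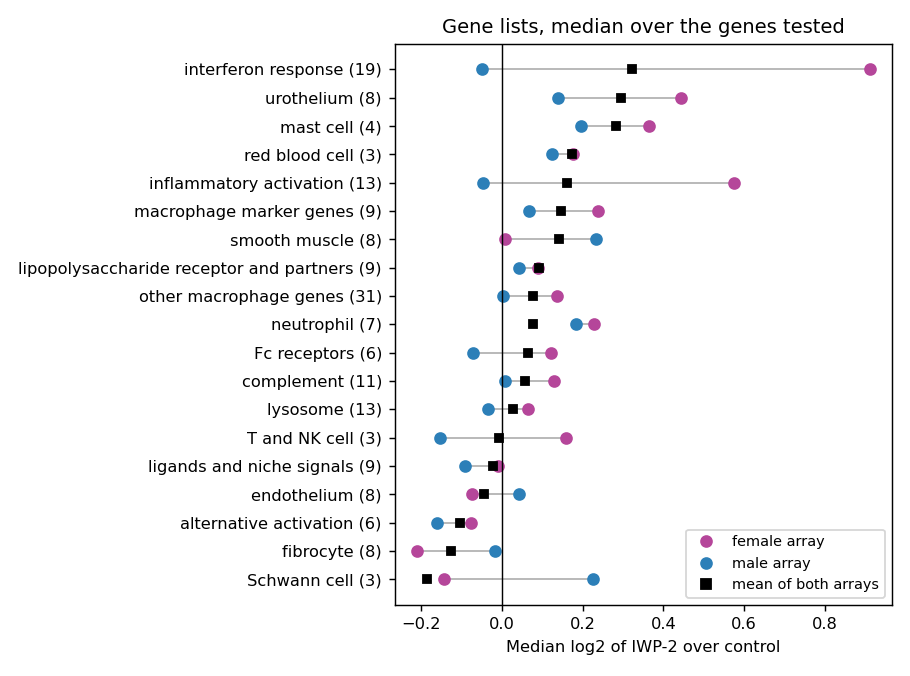
Median log2 of IWP-2 over control (x axis) of each gene list with at least 3 genes tested (y axis, number tested in brackets); purple is the female array, blue the male array and the black square the median of the means of both arrays. The list of WNT check genes (*Axin2*, *Lgr5*, *Nkd1*, *Notum* and *Wif1*) is left out. The macrophage marker genes lie at 0.24 (female) and 0.07 (male), and the interferon response genes at 0.91 and −0.05.

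Inflammatory and interferon-response genes had higher medians in the female than in the male array, a difference that was not tested. All 19 interferon-response genes tested of a list of 20 were above 0 in the female array, with a median of 0.91, and 7 were above 0 in the male array, with a median of −0.05. Limma called 0 of them and gave 7 higher at an unadjusted p under 0.05, against 6.27% of all genes tested. Over the interferon list the male control pool lay above the female control by a median of 2.53 on the log2 scale. Over the macrophage marker genes this median was 0.15. Of 17 genes of inflammatory activation 13 were tested and 0 called, 10 above 0 in the female and 5 in the male array, with medians of 0.57 and −0.05 and 3 genes higher at an unadjusted p under 0.05. *Saa3*, a serum amyloid that macrophages and epithelia make on stimulation, gave 1.82 and 0.20 (limma adjusted p = 0.238), and the chemokine genes *Cxcl10* and *Ccl4* had means of 1.10 and 0.01. The brightest interferon-response genes, *Bst2*, *Isg15* and *Ifit3*, had means of 0.07, 0.37 and 0.85. Summed over all 20 genes, the interferon list had signals of 9315 and 41654 in the controls and of 15923 and 38265 in the treated pools. The part of this difference between the pools in the values of the macrophage marker genes was not tested. In 7 of these 9 genes the difference was larger in size in the female array, for *Mrc1* with a lower signal in the treated pool (−0.29).

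**Figure D4:**
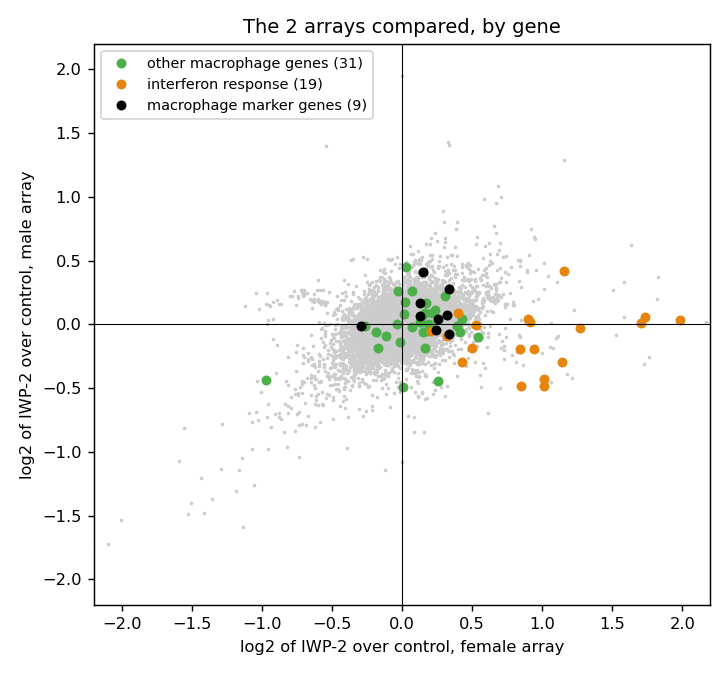
Log2 of IWP-2 over control in the female array (x axis) and the male array (y axis) for the 14336 genes tested (grey; 9 lie outside the axes at 2.2), with the 9 macrophage marker genes in black, 31 other macrophage genes in green and 19 interferon-response genes in orange. The black points lie within 0.42 of 0 on both axes, while the orange points spread to the right along the x axis.

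Markers of other cell types were read beside the macrophage genes. Urothelium genes were above 0 in both arrays in 7 of 8 cases, against 25.7% of all genes tested. Their median was 0.44 in the female and 0.14 in the male array, with 0 called. At an unadjusted p under 0.05, 6 were higher, against 6.27% of all genes tested that were higher and 6.64% that were lower. The summed signals of the urothelium genes were 89770 and 109466 in the controls and 117347 and 118168 in the treated pools. The summed signals of the macrophage marker genes were 10722 and 11994 in the controls and 12128 and 12468 in the treated pools. Fibrocyte genes had a median of −0.13, with 1 of 8 called lower, *Aldh1a2* (−0.76 and −0.50, limma adjusted p = 0.028). At an unadjusted p under 0.05, 2 were lower and 0 higher, the second being *Thy1* (−0.60 and −0.37, limma adjusted p = 0.0547). The summed fibrocyte signals were 118258 and 105913 in the controls and 100308 and 106074 in the treated pools. Endothelium (8 of 8 tested, 0 called, 1 higher at an unadjusted p under 0.05, median −0.04) and smooth muscle genes (8 of 8 tested, 0 called, 2 higher at an unadjusted p under 0.05, median 0.14) had summed signals of 22207 to 24595 and 74687 to 86754 in the controls and of 22775 to 22871 and 85980 to 86226 in the treated pools. Of the Schwann cell genes 3 of 4 were tested and 0 called (1 higher and 1 lower at an unadjusted p under 0.05), with summed signals of 5616 and 4794 in the controls and 3581 and 5547 in the treated pools.

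Lists of blood and other immune cells ranged from the floor to bright signals. For comparison, 25.7% of all genes tested were above 0 in both arrays. At an unadjusted p under 0.05, 6.27% of all genes tested were higher and 6.64% lower. B cell (5 of 6 genes on the array) and dendritic cell or MHC class II genes (11) had no gene that reached the test, with summed signals of 81.4 to 86.5 and 288 to 331 over the 4 pools, and *Pax5*, *Flt3*, *Xcr1* and *Clec9a* lay at the floor in all pools. Of 11 T and NK cell genes 3 were tested and 0 called, also without adjustment. Of these, *Cd4* had signals of 354 and 1210 in the controls and of 396 and 914 in the treated pools. *Lck* lay between 252 and 298 and *Cd3e* between 89.4 and 113. The summed signals of the list were 876 and 1805 in the controls and 938 and 1491 in the treated pools, and *Cd3d*, *Cd3g* and *Cd8a* lay at the floor in all pools. *Ccr2*, the chemokine receptor of inflammatory monocytes, also lay at the floor in all pools, and 2 of 5 monocyte genes were tested with 0 called, also without adjustment. These were *Ly6c1*, which endothelium also makes, and *Plac8*, both bright, and the monocyte list had summed signals of 15165 and 27749 in the controls and 15479 and 22659 in the treated pools. Of 11 neutrophil genes 7 were tested and 1 called higher, *Camp*, an antimicrobial peptide of neutrophils and epithelia (0.84 and 0.46, limma adjusted p = 0.0416). At an unadjusted p under 0.05, 3 were higher and 1 lower. The higher ones were *Camp*, *S100a8* (0.24 and 0.20) and *S100a9* (0.23 and 0.28), and the lower one was *Mpo* (−0.38 and −0.24). *Ly6g* and *Elane* had signals of 465 and 908 and of 181 and 803 in the controls, while *Ngp*, *Ltf*, *Retnlg* and *Cxcr2* lay at the floor in all pools. The summed neutrophil signals were 5091 and 6464 in the controls and 5315 and 6796 in the treated pools, most of it from *Csf3r*, a cytokine receptor gene. Of 8 mast cell genes 4 were tested and 0 called (2 higher at an unadjusted p under 0.05), all 4 above 0 in both arrays (median 0.28), with summed signals of 635 and 1377 in the controls and 780 and 1684 in the treated pools. The 3 of 6 red blood cell genes tested, all globin genes, were above 0 in both arrays (median 0.17, 0 called, 2 higher at an unadjusted p under 0.05). The summed signals of this list were 22817 and 23365 in the controls and 26097 and 25891 in the treated pools. The part of these cell types, in particular urothelium and globin RNA, in the values of the macrophage marker genes was not tested.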

How the data were processed

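Both arrays were 2-colour Agilent whole-genome expression arrays with 157716 spots and 4 spots per probe. The authors quantified them with Agilent Feature Extraction (10.7.3.1 per the labels, 12.2.0.7 as the grid placement version in the file headers). The deposited intensity columns are processed signals of each dye, already background-subtracted, detrended and dye-normalized by linear scaling and LOWESS. The deposited log10 ratio of red over green, which Feature Extraction computed for the authors, was used only to check the signals. The authors' deposited series table holds a score, the fold difference with a sign for its direction and 1 decimal, used only as an alternative. How that table was made is not given in the sources used here. The study filtered genes by a control signal above 100 and 1.5-fold, which was required in both arrays here.

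Control spots and spots flagged as outliers (3.32% and 3.22%) were left out. Signals were loess-normalized within each array (limma 3.58.1, R 4.3.3), averaged over spots, floored at 15 and taken to log2. The ratio of the dye-swapped array was turned so that both run as IWP-2 over control. Each gene is represented by its brightest probe (7395 genes have several). Genes whose signal averaged over 100 in the control or the treated pools were tested with lmFit and eBayes on the 2 log ratios against 0, with Benjamini-Hochberg adjustment at 0.05, and intervals are at 95%. No spot was saturated, and 68.4% to 70% of spots were well above background in each channel. The procedure was tested on simulated data. The simulated noise was the difference between the 2 arrays divided by 2, which understates the noise of a single array. The study's methods call the pools independent. Pools were paired within an array by the hybridization itself. The 10 genes and all gene lists were chosen with earlier results of these data known. Named are all 10 genes with every probe, *Axin2*, each list gene called by limma and the 3 tested genes of highest signal in the lists of macrophage function (lists of other cell types are described by their counts and summed signals). Other genes were named after their values were seen. A few list genes are not reported here by name. Probe positions in exons or UTRs were not examined, and no genome was used.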

Additional observations from a re-analysis of the deposited data

Results flagged for a closer look

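With 1 array per sex, no difference between the arrays could be tested, and sex, dye orientation and array cannot be told apart. *C1qa* and *Cd14* were above 0 in the female and below 0 in the male array, and their log2 differences of IWP-2 over control differed by 0.28 and 0.40 (female minus male). The median differences of several gene lists also lay on opposite sides of 0. They were higher in the female array by 0.96 for interferon-response genes, 0.62 for inflammatory activation, 0.31 for monocyte genes, 0.31 for T and NK cell genes, 0.19 for Fc receptors and 0.10 for lysosome genes. For endothelium (−0.12) and Schwann cell genes (−0.37) the female array was the lower one.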

How the results depend on the processing

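The number of genes called by limma moved from 179 to 435 with normexp background correction, 403 with an intensity trend, 117 without loess, 67 with the mean of all probes, and 1321 in the deposited table, where rounding left 34.9% of tested genes with equal values in both arrays. Median centring gave 193, split into 108 lower and 85 higher against 127 and 52. Without the replicate block, that is with the pairing of pools on an array ignored, 8 genes were called. The study's filter passed 62 genes, 114 with the requirement of signals well above background in its place, 19 with a fold of 2, and 103 to 272 when either array was left out. Of the macrophage marker genes, 0 were called except 1 (*Lyz2*) with the intensity trend and 3 (*Cd68*, *Csf1r* and *Lyz2*) in the deposited table. Their median was 0.07 to 0.24 when either array was left out. Without replicate 1, *C1qa* turned to −0.0414 and *Cd14* to −0.0724, and without replicate 2 they were 0.24 and 0.33. In each case the cause was not tested. Leaving out an array leaves no test, and a slide block could not be fitted because both arrays share 1 slide.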
